A study of Mus musculus with 12 samples.

Results

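Dlk1+ Sca1+ fibroblasts of newborn mouse dermis carry the surface proteins of 2 other sorted populations at once, Dlk1 of the Dlk1+ reticular gate and Sca1 of the Dlk1- Sca1+ gate. For each of 3 animals, the log2 value of a gene on the Dlk1+ Sca1+ array was set against the midpoint, the mean of the values of the same animal on the reticular and the Dlk1- Sca1+ array. A gene at the midpoint is one for which the double-positive cells sit halfway between their neighbours on the log2 scale. The differences use 9 of the 12 arrays of the study and cover 17097 genes, and the comparison was defined by sample labels, without a measured value. The spread behind each SE and adjusted p of the main fit was estimated from all 12 arrays, the papillary ones included.

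The study profiled fibroblasts from the dermis of 3 female littermates aged 2 days on Affymetrix arrays, with 1 array per population and animal. Skin without its subdermal layer was digested with collagenase, and cells with Pdgfra and CD34 but without CD45, CD117, CD31 or EpCam were sorted. Dlk1+ Sca1+ and Dlk1- Sca1+ cells, both labelled pre-adipogenic fibroblasts, lacked CD26. Dlk1+ reticular fibroblasts lacked CD26 and Sca1, and the CD26+ upper papillary fibroblasts of the other 3 arrays lacked Dlk1 and Sca1. No genotype or treatment was given in the labels, and RNA of 4500 cells per sample was amplified over 21 cycles. In such bulk samples, fewer cells of a type and less RNA per cell cannot be told apart.

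Papillary fibroblasts form the upper dermis and help to build hair follicles, whereas reticular fibroblasts lay down much of the fibrous matrix of the lower dermis. Adipocyte precursors of the skin lie deepest and mature into the dermal fat layer, and Sca1 is a usual surface marker of mesenchymal progenitors that include them. Dlk1 is a membrane protein of the EGF-like repeat family, related in structure to Notch ligands, that restrains adipocyte formation.

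Array medians lay between 6.21 and 6.34. Transcripts of the sorting markers gave a check of the labels. Dlk1 was at 12.87, 12.90 and 12.82 in the Dlk1+ Sca1+ cells of animals 1, 2 and 3, at 12.96, 13.04 and 12.90 in reticular cells, and at 11.18, 11.45 and 11.54 in Dlk1- Sca1+ cells. Both Dlk1+ populations were above all Dlk1- Sca1+ arrays, and Dlk1 was called above the midpoint by 0.69 ± 0.09 (SE, adjusted p = 0.0005257 by limma). Its values in both Dlk1+ populations were close to 13.23, the highest value of any probe set, where differences can be compressed, so neither this size nor the likeness of both populations is exact. Dpp4, the gene of CD26, was at means of 6.26 in Dlk1+ Sca1+, 6.30 in reticular and 6.37 in Dlk1- Sca1+ cells, against 10.61 in papillary cells. The transcript of Sca1 was not analysed here. Among the gate genes, Cd34 was above the midpoint by 0.34 ± 0.08 (adjusted p = 0.03706 by limma), and leaving out any 1 animal ended that call (adjusted p = 0.1799 to 0.2299).

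Most genes were near the midpoint. The median difference over all genes was -0.01 log2 units, and 728 genes, or 4.26%, were called at an adjusted p under 0.05 (limma with Benjamini-Hochberg over all genes, as for every adjusted p here). Of these, 397 (2.32%) were higher in Dlk1+ Sca1+ cells and 331 (1.94%) were lower. The called genes fell into 3 kinds of position. In 108 genes (0.632%) the double-positive cells were above each neighbour in a contrast of its own, and in 105 genes (0.614%) they were below each. In 58 genes (0.339%) the mean lay between the neighbours but nearer the reticular cells, and in 61 (0.357%) nearer the Dlk1- Sca1+ cells. The other 396 had a mean beyond both neighbours without passing both tests. Those tests called 1441 genes (8.43%) against reticular and 1258 (7.36%) against Dlk1- Sca1+ cells, and both contrasts share the 3 Dlk1+ Sca1+ arrays.

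Values of single animals describe the same genes, which were called on these very arrays, so their counts restate the calls and support nothing. Of the 108 genes called above both neighbours, 105 had all 3 Dlk1+ Sca1+ values above all 6 neighbour values, and all 105 genes called below both had their 3 values below all 6. Such values were seen in 2.2% and 2.13% of all genes. Within each of the 3 animals the double-positive value was above both neighbours in 107 of the 108 and below both in all 105 (5.33% and 6.32% of all genes). Precision rests on 3 arrays per population. Leaving out animal 3 left 29 genes above and 37 below both neighbours, leaving out animal 1 left 52 and 49, and leaving out animal 2 left 56 and 53. Without animal 3, 123 genes were higher and 86 lower than the midpoint, without animal 1 192 and 182, and without animal 2 185 and 154. Among single arrays, leaving out the Dlk1+ Sca1+ array of animal 1 gave 226 higher and 210 lower with 68 above both, and that of animal 3 gave 208 and 197 with 66 above both. With the animal as a replicate block, 578 genes were higher and 513 lower than the midpoint, and 185 were above and 159 below both neighbours. With the 3 differences per animal as the only data, these numbers were 497, 423, 154 and 125. With only the 9 arrays of the 3 populations in the fit, they were 322, 263, 91 and 86.

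**Figure D1:**
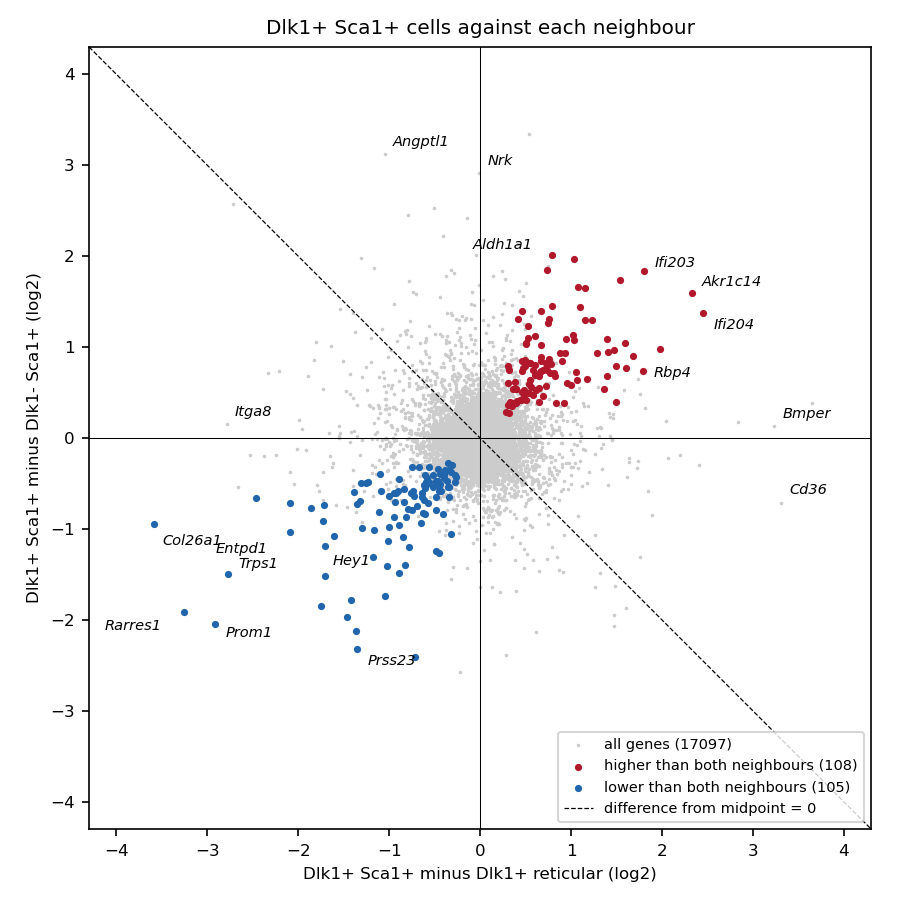
Each point is 1 of 17097 genes, placed by the log2 difference of Dlk1+ Sca1+ cells from Dlk1+ reticular cells (horizontal) and from Dlk1- Sca1+ cells (vertical), as means of 3 animals. The 108 genes above both neighbours fill the upper right and the 105 below both the lower left, while genes such as Cd36, Bmper, Nrk and Itga8 lie near an axis, at or near the level of 1 neighbour.

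The genes that mark the double-positive state were picked with results of these data known, so their values are a description without a test. Akr1c14, an aldo-keto reductase that acts on steroids and prostaglandins, was at 7.41, 7.34 and 7.20 in the Dlk1+ Sca1+ cells of animals 1 to 3. It was at 4.93, 5.22 and 4.82 in reticular cells and at 5.63, 5.44 and 6.08 in Dlk1- Sca1+ cells. Every double-positive value was thus above every neighbour value, and the mean lay 1.96 ± 0.13 (SE) above the midpoint, a 3.90-fold difference. Akr1c14 was lowest in papillary cells, at a mean of 4.06.

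Fgf23, a hormone-like fibroblast growth factor best known from bone, was at 5.42, 5.82 and 5.68 in Dlk1+ Sca1+ cells. Its neighbour values were 4.07, 4.77 and 4.39 in reticular and 4.36, 4.48 and 4.19 in Dlk1- Sca1+ cells. Both neighbours were near the papillary mean of 3.97, close to the dim end of the arrays, so the 2.40-fold difference from the midpoint may understate the change. Met, the receptor of hepatocyte growth factor, was at 8.15, 7.61 and 8.37 in Dlk1+ Sca1+ cells, at 6.85, 6.66 and 6.45 in reticular cells, and at 7.48, 6.65 and 6.72 in Dlk1- Sca1+ cells. The groups did not overlap, with animal 2 the lowest of the double-positive cells and animal 1 the highest of the Dlk1- Sca1+ cells. The mean Met difference from the midpoint was 1.24 ± 0.19.

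The remaining pair of markers ran the other way. Trps1 is a zinc finger repressor of transcription that acts in hair follicle and cartilage development. It was at 6.84, 6.54 and 7.08 in Dlk1+ Sca1+ cells, at 9.67, 9.32 and 9.79 in reticular and at 8.25, 8.13 and 8.57 in Dlk1- Sca1+ cells. The double-positive values were the lowest 3 of the study and lay -2.14 ± 0.14 from the midpoint, a 4.39-fold difference, and papillary cells were the highest at 11.10. The 4 probe sets of Trps1 differed from the midpoint by -2.03 to -2.26. Entpd1, which encodes CD39, an enzyme that breaks down extracellular ATP, was at 5.44, 5.65 and 5.51, against 7.57, 7.85 and 7.44 in reticular and 6.48, 6.47 and 6.74 in Dlk1- Sca1+ cells. Its order was the same as that of Trps1, with papillary cells on top at 9.48 and a difference from the midpoint of -1.56 ± 0.11.

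Most members of the markers' families did not pass the test. Of all genes, 2.32% were called higher and 1.94% lower than the midpoint, the shares to set beside this and later list counts. In the list of 26 measured Akr1c and detoxification genes, 4 rose, with a list median of 0.01. Those were Akr1c14 and the glutathione transferases Gstt1, Gstm2 and Gstm1 (0.70, 0.61 and 0.32). The call of Gstm1 was lost without any 1 animal (adjusted p = 0.1826, 0.09899 and 0.282 by limma) and with the mean of its probe sets (0.20, adjusted p = 0.1305 by limma). The members Akr1c12, Akr1c13 and Akr1c18 differed by 0.00, 0.04 and 0.46 without a call. Akr1cl, a gene of like name outside the list, did rise. In 21 alternative fits it was above the midpoint by 0.437 to 1.007 (adjusted p of at most 0.02192 by limma). Of 28 FGF ligands, receptors and response genes, Fgf23, Fgf7 and Fgf10 rose and the receptor Fgfr4 fell. In the Met list 1 of 17 genes rose, Met itself, and its ligand Hgf differed by 0.16 ± 0.14 (adjusted p = 0.7749 by limma). In the list of 19 ectonucleotidases and purine receptors, Entpd1 and P2ry1 fell and Entpd6 rose. The call of P2ry1 was lost without any 1 animal (adjusted p = 0.2946, 0.2561 and 0.06918 by limma) and with the 3 differences per animal as the only data (adjusted p = 0.126 by limma), and that of Entpd6 without animal 2 or animal 3 (adjusted p = 0.07823 and 0.2297 by limma). Without animal 3 Met was not called against the midpoint (adjusted p = 0.1327 by limma), and with the mean of its probe sets Fgfr4 was not called against both neighbours (larger adjusted p = 0.473). The same call of Fgfr4 was lost without animal 2 and animal 3 (0.226 and 0.146).

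**Figure D2:**
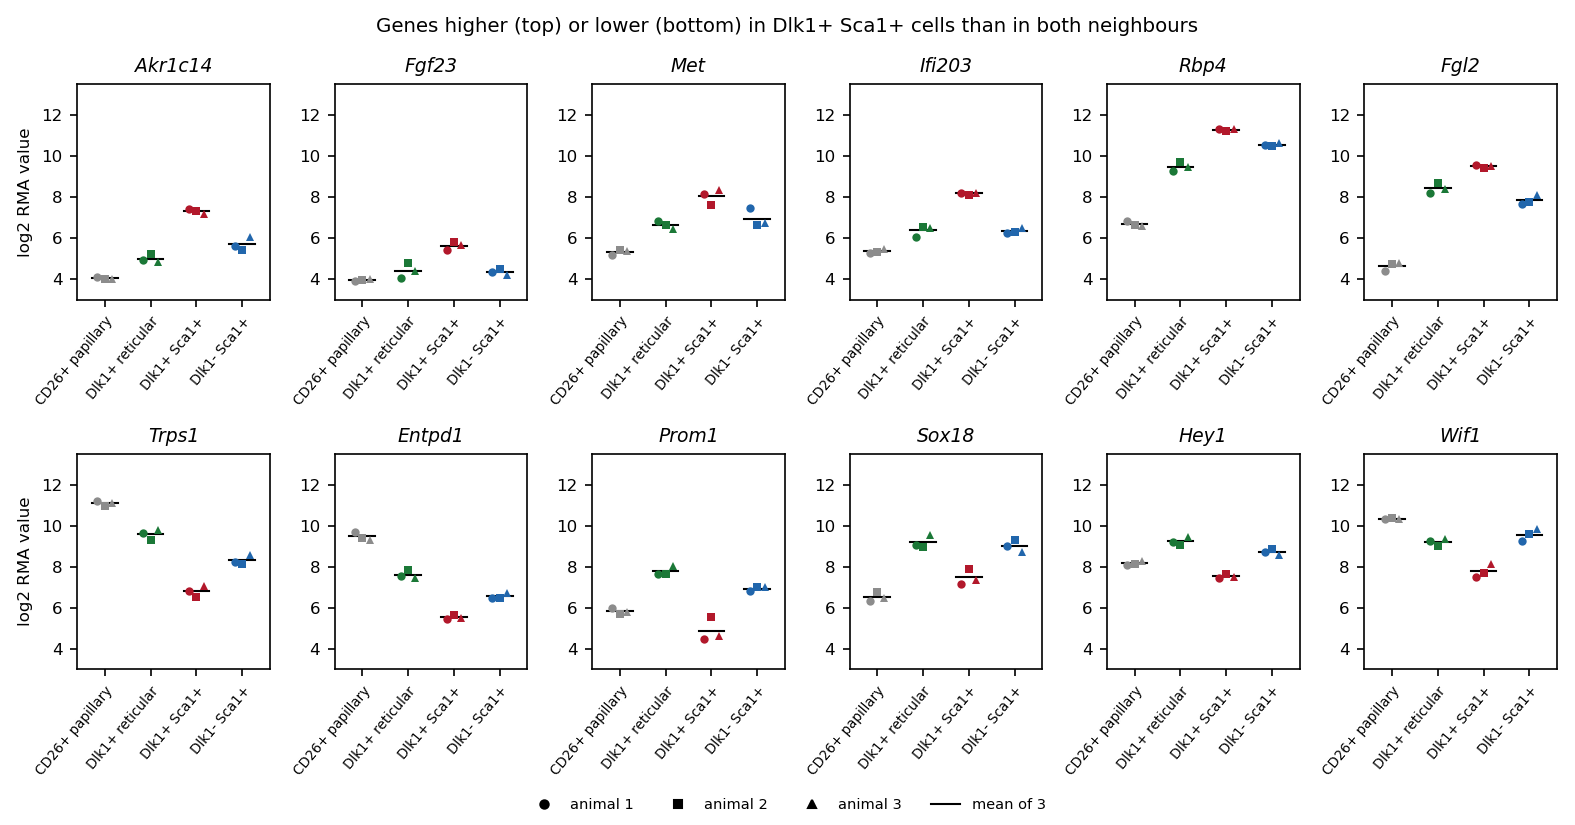
Log2 RMA values of 12 genes on all 12 arrays, by population (horizontal) and animal (symbols), with the mean of 3 animals as a bar. In the upper row the 3 Dlk1+ Sca1+ values of Akr1c14, Fgf23, Met, Ifi203, Rbp4 and Fgl2 lie above all 6 neighbour values, and in the lower row those of Trps1, Entpd1, Prom1, Sox18, Hey1 and Wif1 lie below all 6.

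Genes of the Ifi200 family stood next to Akr1c14 among the largest rises over both neighbours. They encode interferon-inducible nuclear and cytosolic proteins, several of which bind DNA. Ifi203 was at 8.21, 8.13 and 8.21 in Dlk1+ Sca1+ cells, at 6.06, 6.56 and 6.52 in reticular and at 6.25, 6.29 and 6.49 in Dlk1- Sca1+ cells. Both neighbours were alike and the double-positive cells stood apart, 1.80 ± 0.12 above reticular (adjusted p = 1.194e-06 by limma) and 1.84 ± 0.12 above Dlk1- Sca1+ cells (adjusted p = 1.928e-06 by limma). Ifi205 was at 7.50, 7.02 and 7.35, against 5.71, 5.86 and 5.69 in reticular and 5.57, 5.14 and 5.95 in Dlk1- Sca1+ cells. Its rise over the midpoint was 1.64 ± 0.15, and its neighbours overlapped each other but not the double-positive cells.

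Ifi204 had the larger spread. It was at 8.06, 7.81 and 8.15 in Dlk1+ Sca1+ cells, at 5.58, 5.93 and 5.15 in reticular and at 6.68, 5.97 and 7.24 in Dlk1- Sca1+ cells. Ifi204 rose by 2.45 ± 0.26 over reticular and by 1.38 ± 0.26 over Dlk1- Sca1+ cells (adjusted p = 0.005207 by limma), and without animal 1 the larger adjusted p was 0.102. The other 3 measured members, Ifi202b, Ifi209 and Ifi213, differed from the midpoint by -0.06, 0.09 and 0.25 without a call. Ifi203 and Ifi204 are neighbours among the measured genes of their chromosome, and all 3 called members are known for sequence similarity, so probe sets may in part read more than 1 of them.

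Other interferon response genes formed a list of their own. Of 21 measured members, limma called 0 in either direction, and with the animal as a replicate block 2 rose. Their median difference was 0.16, against -0.01 over all genes. At an unadjusted p under 0.05 by limma, 6 members were higher and 0 lower. The share of all genes at that unadjusted threshold is not given here. Such counts, here and below, are thus no measure of an excess. Ifit1, Ifit2 and Ifit3, classical targets of type I interferon, differed by 0.42, 0.52 and 0.41 without a call, and Mx1 and Mx2 by 0.05 each.

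Promoter letters are shown for 4 members called against both neighbours, Akr1c14, Fgf23, Ifi205 and Hey2, a Notch target described below. Windows are the 250 bases before the RefSeq start on build GRCm38.p6, 5′ to 3′ on the strand of the gene. Of 6 motifs searched on both strands, capitals mark matches to the interferon-type pair of GAAA with any 2 bases between in Akr1c14 and Ifi205, TTCNNNGAA of STAT factors and TTGCNNAA of C/EBP factors in Fgf23, and GTGGGAA of the Notch partner RBPJ in Hey2. The windows were chosen after their matches had been seen, among 34 windows of 23 genes. Only 10 of the 34 windows held a match. The RBPJ letters were also in a window of Met, which rose, and in 1 of Cd200, which fell.
Akr1c14 promoter, chr13:4059341-4059590 (+ strand): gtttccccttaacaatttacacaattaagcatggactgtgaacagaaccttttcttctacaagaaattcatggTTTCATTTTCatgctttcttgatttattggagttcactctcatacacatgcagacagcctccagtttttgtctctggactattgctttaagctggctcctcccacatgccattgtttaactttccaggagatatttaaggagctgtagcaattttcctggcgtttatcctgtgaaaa
Fgf23 promoter, chr6:127072652-127072901 (+ strand): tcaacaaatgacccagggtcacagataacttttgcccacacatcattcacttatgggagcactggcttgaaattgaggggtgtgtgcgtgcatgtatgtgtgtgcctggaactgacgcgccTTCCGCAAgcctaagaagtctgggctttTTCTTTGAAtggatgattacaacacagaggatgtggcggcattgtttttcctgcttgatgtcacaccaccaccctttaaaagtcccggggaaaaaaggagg
Ifi205 promoter, chr1:174031756-174032005 (- strand): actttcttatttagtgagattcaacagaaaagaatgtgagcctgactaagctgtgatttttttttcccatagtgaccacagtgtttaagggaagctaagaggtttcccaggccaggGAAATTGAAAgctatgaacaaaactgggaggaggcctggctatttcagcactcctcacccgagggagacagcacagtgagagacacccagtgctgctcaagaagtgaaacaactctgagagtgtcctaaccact
Hey2 promoter, chr10:30842784-30843033 (- strand): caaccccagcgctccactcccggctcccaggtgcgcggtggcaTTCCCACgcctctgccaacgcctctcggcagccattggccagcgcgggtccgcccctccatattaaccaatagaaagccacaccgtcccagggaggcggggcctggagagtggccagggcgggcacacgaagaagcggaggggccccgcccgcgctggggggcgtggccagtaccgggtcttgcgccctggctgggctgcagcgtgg

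The interferon-type letters began 177 bases before the start of Akr1c14 and 134 before that of Ifi205. They were in 6.67% of 105 windows of genes above both neighbours, in 1.89% of 106 windows of genes below both, and in 2.56% of 17065 windows of all measured genes. The shares for the RBPJ letters were 6.67%, 6.6% and 5.47% in the same order, and for the STAT letters 8.57%, 4.72% and 6.35%. CTTTGAT of TCF/LEF factors was in 7.62%, 1.89% and 2.7%, TTGCNNAA in 12.4%, 7.55% and 8.3%, and TTGCGTG of the aryl hydrocarbon receptor in 0.0%, 1.89% and 1.16%. The interferon-type letters were in 7 windows of genes above both neighbours, among them a window each of Ifi203 and Ifi205. These related genes have similar letters around the match, so their matches are not independent. Some genes have several overlapping windows, and windows were held for 84 of the 108 and 77 of the 105 genes. A match is a stretch of letters and was not tested as a binding site.

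Rbp4, Aldh1a1 and Acaa1b were among the largest rises over both neighbours. Rbp4, the carrier of retinol in blood, was at 11.31, 11.24 and 11.31 in Dlk1+ Sca1+ cells, at 9.28, 9.74 and 9.46 in reticular and at 10.53, 10.48 and 10.63 in Dlk1- Sca1+ cells. Its 3 values were the highest of all arrays and 1.27 ± 0.10 above the midpoint (adjusted p = 1.015e-05 by limma). Aldh1a1, which oxidizes retinaldehyde to retinoic acid, was at 7.34, 6.99 and 6.48, against 6.43, 6.13 and 5.87 in reticular and 5.0, 4.82 and 4.95 in Dlk1- Sca1+ cells. The lowest double-positive value was just above the highest reticular one, and without animal 2 the larger adjusted p was 0.211. Acaa1b, a peroxisomal thiolase of fatty acid breakdown, was at 6.93, 6.55 and 6.75, against 4.97, 5.24 and 5.24 in reticular and 5.73, 5.48 and 5.90 in Dlk1- Sca1+ cells.

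Of 25 retinoid and prostaglandin genes, 8 rose and 3 fell, with a median of 0.05. Without animal 1 there were 4 and 2, and without animal 3 there were 5 and 1. The falling members were Rarres1, Crabp1 and Rdh10 (lost without any 1 animal, adjusted p = 0.126, 0.05001 and 0.1874 by limma), so the list had no common direction. Rarres1, a retinoid-induced membrane protein, had the largest fall of all genes. It was at 5.33, 5.83 and 5.43 in Dlk1+ Sca1+ cells, at 8.87, 8.43 and 9.06 in reticular and at 7.35, 7.48 and 7.49 in Dlk1- Sca1+ cells. It fell by 2.58 ± 0.14 on the log2 scale from the midpoint, a 5.99-fold difference (adjusted p = 1.223e-06 by limma), with no overlap.

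Complement and cytokine genes rose in part. Of 27 measured chemokine, cytokine and complement genes, 11 rose (median 0.42), 5 of them above both neighbours, and without animal 3 the count was 5. C1ra, a protease of the first complement component, was at 9.03, 8.31 and 8.75 in Dlk1+ Sca1+ cells, at 7.62, 7.42 and 7.18 in reticular and at 7.84, 7.51 and 7.92 in Dlk1- Sca1+ cells. Its rise over the midpoint was 1.12 ± 0.17, and without animal 3 its adjusted p was 0.08208 by limma. C1s1, the partner protease and its neighbour on the chromosome, rose by 0.85 ± 0.13, and without animal 2 and animal 3 its larger adjusted p was 0.0753 and 0.16.

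Serping1, the inhibitor of both proteases, was at 11.27, 10.90 and 11.04, against 10.61, 10.50 and 10.29 in reticular and 9.89, 9.84 and 10.11 in Dlk1- Sca1+ cells. So the inhibitor rose with its targets, by 0.86 ± 0.10 (adjusted p = 0.0002281 by limma). C4b, the complement component that C1s cleaves, rose by 1.12 ± 0.15, and Osmr, the receptor subunit of oncostatin M, by 1.03 ± 0.13. Without animal 3 the larger adjusted p against both neighbours was 0.0872 for Serping1, 0.0716 for C4b and 0.239 for Osmr. Without animal 1 it was 0.0688 for C4b and 0.0671 for Osmr, and without animal 2 it was 0.0554 for C4b. Ccl2, Ccl8 and Ccl11, chemokines for monocytes and eosinophils, differed from the midpoint by -0.02, -0.07 and -0.23 without a call.

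Other genes with large rises came from several functions. Fgl2, a secreted and membrane-bound fibrinogen-like protein, was at 9.58, 9.45 and 9.51 in Dlk1+ Sca1+ cells, at 8.22, 8.69 and 8.39 in reticular and at 7.69, 7.78 and 8.10 in Dlk1- Sca1+ cells. Scn7a, a sodium channel protein that senses sodium, was at 10.16, 9.97 and 9.99, against 8.95, 9.28 and 8.79 in reticular and 8.94, 8.70 and 9.25 in Dlk1- Sca1+ cells. Neither gene had overlapping groups, and they rose by 1.37 ± 0.12 and 1.06 ± 0.13 over the midpoint (adjusted p = 3.868e-05 and 0.0005535 by limma). Adam23, a membrane protein of the ADAM family without protease activity, rose by 1.27 ± 0.16, Ces2g, a carboxylesterase, by 1.40 ± 0.19 and Prkcb, a protein kinase C isoform, by 1.22 ± 0.20. The other probe set of Prkcb, of a like level, differed by 0.21. Prkcb was still higher in papillary cells, at a mean of 7.88 against 7.27. Against both neighbours, the larger adjusted p was 0.0623 for Adam23 without animal 3, 0.0907 for Ces2g without animal 1 and 0.106 without animal 3, and 0.1 for Prkcb without animal 1.

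Chrdl1 and several markers of the loose connective tissue were also among the rises. Chrdl1, an antagonist of BMP ligands, was at 8.99, 8.70 and 8.92 in Dlk1+ Sca1+ cells, at 7.43, 7.51 and 7.18 in reticular and at 7.96, 7.93 and 8.33 in Dlk1- Sca1+ cells. It rose by 1.15 ± 0.11, with all double-positive values on top, and without animal 1 the larger adjusted p was 0.0557. Of 13 fascia and adventitia genes, 6 rose (median 0.32), and without animal 3, 4 rose. Among these, Procr, the receptor of activated protein C, rose above both neighbours by 1.08 ± 0.17 over the midpoint, and without animal 2 and animal 3 its larger adjusted p was 0.069 and 0.115. Ly6c1, a membrane protein of the Ly6 family, had the largest rise over the midpoint of all genes, 2.02 ± 0.10, but its difference from Dlk1- Sca1+ cells was 0.39 ± 0.12 (adjusted p = 0.07518 by limma). Pi16 and Dpt, other markers of that tissue, differed by 0.01 and 0.09.

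Genes of the upper dermis and the hair follicle were among those below both neighbours. Of 20 papillary dermis genes, 12 fell (median -0.62), and without animal 3, 7 fell. The list holds the markers Trps1 and Entpd1, which were picked with results of these data known, so their falls are no test of the list. Both markers, Wif1 and Apcdd1 were below both neighbours. Wif1, a secreted inhibitor of Wnt ligands, was at 7.51, 7.72 and 8.14 in Dlk1+ Sca1+ cells, at 9.25, 9.03 and 9.35 in reticular and at 9.28, 9.62 and 9.82 in Dlk1- Sca1+ cells. The neighbours overlapped each other and the double-positive cells lay below them all, and Wif1 fell by 1.60 ± 0.14 from the midpoint (adjusted p = 3.432e-05 by limma).

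Apcdd1, a membrane inhibitor of Wnt signalling, was at 8.57, 8.58 and 8.62 against 10.52, 9.98 and 10.85 in reticular and 9.44, 9.22 and 9.43 in Dlk1- Sca1+ cells. Its double-positive values were the lowest and the most alike, and without animal 1 and animal 3 the larger adjusted p was 0.173 and 0.0677. Lef1, the transcription factor that acts with beta-catenin, fell by 1.16 and Rspo3, a secreted enhancer of Wnt signalling, by 0.98 from the midpoint. Without animal 2 or animal 3, or the Dlk1+ Sca1+ array of animal 1, the call of Lef1 was lost (adjusted p = 0.06405, 0.0585 and 0.0597 by limma). Crabp1, which binds retinoic acid in the cell, fell by 1.20 ± 0.20 from the midpoint, and without animal 3 its adjusted p was 0.133 by limma. Sema3a, Ntn1 and Pdpn of the same list differed by 0.24, 0.13 and 0.23 without a call.

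Dermal papilla genes, which mark the signalling centre at the base of the hair follicle, moved mostly the same way. Of 16 measured, 7 fell and 2 rose (median -0.32), and without animal 3, 5 fell and 1 rose. Prom1, which encodes the surface protein CD133, was at 4.49, 5.53 and 4.62 in Dlk1+ Sca1+ cells, at 7.66, 7.66 and 8.05 in reticular and at 6.80, 6.99 and 7.0 in Dlk1- Sca1+ cells. The groups did not overlap, and Prom1 fell by 2.48 ± 0.19 from the midpoint, a 5.58-fold difference (adjusted p = 1.147e-05 by limma). Sox18, a transcription factor of vessels and of the dermal papilla, was at 7.18, 7.91 and 7.36, against 9.06, 8.97 and 9.54 in reticular and 9.01, 9.29 and 8.70 in Dlk1- Sca1+ cells. The neighbours overlapped each other, and Sox18 fell by 1.61 ± 0.18 from the midpoint (adjusted p = 0.0002281 by limma).

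Alx4, a homeobox factor of the limb and hair, fell below both neighbours by 1.39 ± 0.08 from the midpoint, and Inhba, a subunit of activin, fell by 1.60 ± 0.22. The 2 that rose were Fgf10, a growth factor for epithelium, and Hhip, which binds Hedgehog ligands at the cell surface. Fgf10 was at 8.62, 8.29 and 8.53 in Dlk1+ Sca1+ cells, above 7.78 to 7.87 in reticular and 7.78 to 8.04 in Dlk1- Sca1+ cells. Without animal 1 and animal 3 its larger adjusted p was 0.0899 and 0.0689. Sox2 and Corin, further markers of the papilla, differed by -0.07 and -0.33 without a call.

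Among Notch genes, a receptor and several targets fell. Notch receptors are cleaved when a ligand binds, and the freed part acts with RBPJ to switch on Hes and Hey repressors. Of 17 measured genes, 6 fell (median -0.31), 5 of them below both neighbours, and without animal 1, 3 fell. Notch1 was at 9.56, 9.61 and 9.34 in Dlk1+ Sca1+ cells, at 10.73, 10.75 and 10.99 in reticular and at 10.50, 10.14 and 9.96 in Dlk1- Sca1+ cells. No values overlapped, Notch1 fell by 1.01 ± 0.12 from the midpoint (adjusted p = 0.0003119 by limma), and without animal 2 the larger adjusted p against both neighbours was 0.0691.

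Hey1 was at 7.43, 7.67 and 7.49, against 9.19, 9.07 and 9.46 in reticular and 8.72, 8.86 and 8.57 in Dlk1- Sca1+ cells. Hey1 fell by 1.45 ± 0.10 from the midpoint, the largest fall of the list (adjusted p = 3.929e-06 by limma). Hey2 was at 4.72, 4.59 and 4.67, against 5.92, 5.93 and 6.06 in reticular and 5.17, 5.14 and 5.16 in Dlk1- Sca1+ cells, a dim gene with tight values. Heyl fell by 0.79 ± 0.13, and without animal 1 and animal 2 its larger adjusted p was 0.0882 and 0.0571. Lfng, which modifies Notch receptors with sugars, fell by 0.54 and Hes1 by 0.33. The call of Lfng was lost without animal 1 and animal 3 (adjusted p = 0.1536 and 0.1743 by limma) and that of Hes1 without any 1 animal (adjusted p = 0.08491, 0.3188 and 0.1873 by limma).

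The rest of the list did not pass the test. Notch2, Notch3 and Notch4 differed from the midpoint by -0.06, -0.31 and -0.05, the ligands Jag1, Dll1 and Dll4 by -0.35, -0.32 and -0.09, and Rbpj by 0.28. Some Notch genes are also expressed by cells of vessels, so markers of those cells were read beside them. The 16 endothelial markers had a median difference of 0.10, and limma called 0 of them. At an unadjusted p under 0.05 by limma, 4 were higher and 0 lower. Their summed linear level was 1604 to 2150 in Dlk1+ Sca1+ cells, 1499 to 1684 in reticular and 1917 to 2242 in Dlk1- Sca1+ cells. The 10 pericyte and smooth muscle markers summed to 1741 to 2559, 2686 to 3968 and 1794 to 1865 in the same order. Their median difference was -0.19, with 1 called, Kcnj8, which rose. By limma, 3 of them were lower and 1 higher at an unadjusted p under 0.05. The part of these vessel cell markers in the Notch values was not tested.

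**Figure D3:**
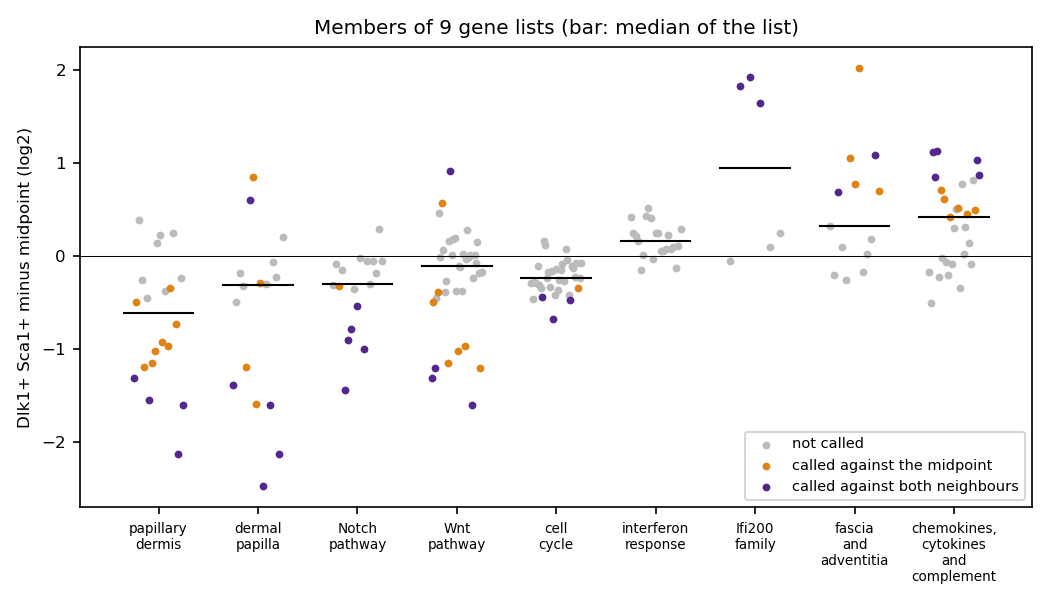
Each point is a measured gene of 1 of 9 lists, placed by its log2 difference of Dlk1+ Sca1+ cells from the midpoint (vertical), with colour for the calls and a bar at the median of the list. Papillary dermis, dermal papilla and Notch genes have medians of -0.62, -0.32 and -0.31, the Ifi200 family has 3 members above 1.5 and 3 near 0, and the interferon response list has no called member.

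Of the Wnt list, more genes fell than rose. Of 36 measured, 9 fell and 2 rose (median -0.12), and without animal 3, 4 fell and 0 rose. Those that fell were Wif1, Dkk1, Dkk3, Rspo3, Apcdd1, Axin2, Nkd2, Lef1 and the ligand Wnt5a. Of these, Wif1, Rspo3, Apcdd1, Axin2, Nkd2 and Lef1 are also in the papillary dermis list, so both lists count the same falls. The calls of Axin2, Dkk3 and Wnt5a were lost without animal 3 (adjusted p = 0.1613, 0.1657 and 0.1792 by limma), and those of Axin2 and Dkk3 also without animal 2 (adjusted p = 0.08626 and 0.2486 by limma), that of Axin2 without animal 1 too (adjusted p = 0.1472 by limma). Dkk1, a secreted antagonist of Wnt coreceptors, was at 5.54, 5.28 and 5.44 in Dlk1+ Sca1+ cells, at 6.59, 6.28 and 6.46 in reticular and at 6.35, 7.02 and 7.10 in Dlk1- Sca1+ cells. It was below both neighbours, and without animal 2 and animal 3 the larger adjusted p was 0.0585 and 0.116. Secreted modulators of the list without a call were Sfrp1, Sfrp2, Dkk2, Notum, Rspo1, Rspo2 and Rspo4.

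The 2 members that rose were the receptors Lgr5 and Fzd4. Lgr5, a receptor for R-spondins, was at 10.43, 10.43 and 10.76 in Dlk1+ Sca1+ cells, at 9.73, 9.51 and 9.75 in reticular and at 9.54, 9.53 and 9.74 in Dlk1- Sca1+ cells, and it was named after its values had been seen. Its rise over the midpoint was 0.91 ± 0.12 (adjusted p = 0.0008919 by limma), without overlap, and without animal 3 its adjusted p was 0.05015 by limma. Fzd4, a Frizzled receptor, rose by 0.57, and without animal 1 and animal 3 its adjusted p was 0.1945 and 0.1215 by limma. Lrp5, Lrp6 and Lgr4, other receptors of the pathway, differed by 0.18, 0.19 and 0.15 without a call.

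Col26a1, Col11a1 and Col7a1 were the collagen genes below both neighbours. Col11a1, a fibril-regulating collagen chain, was at 6.89, 6.98 and 6.63 in Dlk1+ Sca1+ cells, at 8.51, 8.26 and 8.11 in reticular and at 8.30, 9.11 and 8.99 in Dlk1- Sca1+ cells. Col7a1, the anchoring fibril collagen under the epidermis, was at 7.87, 7.98 and 8.26, against 9.68, 9.38 and 9.86 in reticular and 8.88, 9.15 and 9.30 in Dlk1- Sca1+ cells. Both fell without overlap, by 1.71 ± 0.16 and 1.34 ± 0.12 from the midpoint. Col26a1 fell by 2.27 ± 0.13, with a difference of -3.59 from reticular cells and -0.95 from Dlk1- Sca1+ cells. Of 26 collagen genes, 4 fell and 1 rose, with a median of -0.07.

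Axon guidance genes were also among the falls. Robo1, a receptor for Slit proteins, was at 8.91, 8.97 and 9.07 in Dlk1+ Sca1+ cells, at 10.29, 9.80 and 10.35 in reticular and at 10.19, 9.81 and 9.99 in Dlk1- Sca1+ cells. It fell by 1.09 ± 0.12 from the midpoint, with overlapping neighbours (adjusted p = 0.0001558 by limma). Nrp2, a coreceptor of semaphorins and VEGF, fell by 0.82 ± 0.10, and without animal 1 its larger adjusted p was 0.0714. Of 30 axon guidance genes, 10 fell and 3 rose (median -0.21). The number that fell was 5 without animal 1, 3 without animal 2, 3 without animal 3, and 6 without the Dlk1+ Sca1+ array of animal 1 or of animal 3.

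Further genes with large falls came from other functions. Lrrn1, a membrane protein with leucine-rich repeats, was at 5.0, 4.68 and 4.75 in Dlk1+ Sca1+ cells, at 6.62, 6.22 and 6.84 in reticular and at 6.74, 6.39 and 6.83 in Dlk1- Sca1+ cells. Prss23, a secreted serine protease, was at 5.33, 6.07 and 6.11, against 7.41, 6.94 and 7.22 in reticular and 8.41, 7.77 and 8.28 in Dlk1- Sca1+ cells. Neither overlapped its neighbours, and they fell by 1.80 ± 0.19 and 1.84 ± 0.18 from the midpoint. Mef2c, a transcription factor of muscle and vessels, fell by 1.25 ± 0.17, and without animal 3 its larger adjusted p was 0.0534. Cd200, an immune-inhibitory surface protein, fell by 1.74 ± 0.31 and was the least steady, at 5.61, 5.70 and 4.40 in Dlk1+ Sca1+ cells. Its larger adjusted p was 0.284 without animal 3, 0.068 without animal 2 and 0.0716 without animal 1.

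Papillary cells, which are not part of the midpoint, were set beside these genes. The genes were called for high or low double-positive values, so the place of papillary cells relative to those values follows in part from the selection. Of the 108 genes above both neighbours, papillary cells were below both neighbours in 87 (80.6%), against 37.0% of all genes. Of the 105 genes below both neighbours, papillary cells were above both in 61 (58.1%), against 34.5% of all genes. They were above the double-positive cells in 84 of the 105 (80.0%), against 49.8% of all genes. Among the 108, papillary cells were above the double-positive cells in 5 genes (4.6%), Bcat1, C1qtnf1, Cldn10, Plekhg1 and Prkcb. By the correlation of values over the 12 arrays, which share the papillary contrast, the genes most like Akr1c14 were Acaa1b, Ifi204, Ifi203, Agt and Trim69 (Pearson r = 0.988 to 0.954), and those most like Trps1 were Apcdd1, Slco5a1, Col7a1, Aplp1 and Entpd1 (0.986 to 0.977).

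A different group of genes was off the midpoint with the double-positive cells at or near the level of 1 neighbour. Their counts of 58 nearer reticular and 61 nearer Dlk1- Sca1+ cells were 26 and 35 without animal 1, 19 and 19 without animal 2, and 12 and 15 without animal 3, and 33 and 36, 36 and 35, and 29 and 32 without the Dlk1+ Sca1+ array of each animal in turn. Nrk, a kinase of the placenta and embryonic mesenchyme, was at 9.89, 9.78 and 9.80 in Dlk1+ Sca1+ cells, at 9.93, 10.11 and 9.46 in reticular and at 6.68, 6.90 and 7.16 in Dlk1- Sca1+ cells. Its difference from reticular cells was -0.01 ± 0.15 and from Dlk1- Sca1+ cells 2.91 ± 0.15. Kcnj8, a potassium channel subunit, was at 8.23, 7.75 and 7.88, against 8.35, 8.23 and 7.72 in reticular and 5.52, 5.69 and 5.40 in Dlk1- Sca1+ cells. Both genes overlapped the reticular cells and were far from the Dlk1- Sca1+ cells.

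Angptl1, a secreted angiopoietin-like protein, was between, at 10.16, 9.78 and 9.88 beside 11.00, 11.14 and 10.83 in reticular and 6.88, 6.66 and 6.91 in Dlk1- Sca1+ cells. It was above the log2 midpoint by 1.04 ± 0.11, but with the midpoint on the linear scale the difference was -0.13 (adjusted p = 0.5812 by limma). Clic6, Wnt5b and Hp, a chloride channel protein, a Wnt ligand and haptoglobin, were low in Dlk1+ Sca1+ as in reticular cells, and fell by 0.75, 0.65 and 0.59 from the midpoint. Without animal 2 the calls of Wnt5b and Hp were lost (adjusted p = 0.05155 and 0.1152 by limma), and without animal 3 that of Hp (adjusted p = 0.1083 by limma).

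Genes of fat were among those nearer the Dlk1- Sca1+ cells. Cd36, a fatty acid translocase, was at 8.66, 8.95 and 8.00 in Dlk1+ Sca1+ cells, at 5.26, 5.35 and 5.08 in reticular and at 9.42, 9.20 and 9.12 in Dlk1- Sca1+ cells. The difference of the double-positive cells was 3.31 ± 0.18 from reticular and -0.71 ± 0.18 from Dlk1- Sca1+ cells. On the linear scale Cd36 was not called off the midpoint (adjusted p = 0.5607 by limma). Pparg, the nuclear receptor that drives adipocyte formation, was at 9.77, 9.74 and 9.94, between 7.78 to 8.09 in reticular and 10.37 to 10.46 in Dlk1- Sca1+ cells. It was above the midpoint by 0.63 ± 0.09, without animal 3 its adjusted p was 0.05426 by limma, and on the linear scale 0.176.

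Fabp4, a fatty acid carrier, was at 12.27, 12.36 and 12.21 in Dlk1+ Sca1+ cells and at 12.46, 12.51 and 12.44 in Dlk1- Sca1+ cells, near the top of the arrays. Its call against the midpoint (1.01 ± 0.26, adjusted p = 0.04603 by limma) was lost with the animal as a replicate block (adjusted p = 0.05213 by limma), without animal 1 or animal 2 (adjusted p = 0.2667 and 0.198 by limma), and without any single array of the 9 (adjusted p = 0.0593 to 0.1445 by limma). Of 22 genes of adipogenic commitment 2 rose, and of 19 adipocyte product and lipid uptake genes 4 rose, against 2.32% of all genes. Without animal 1 these counts were 1 and 2, and without animal 3 they were 1 and 3. Among 17 cholesterol synthesis genes limma called 0, and 5 were lower and 0 higher at an unadjusted p under 0.05.

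Itga8, an integrin subunit of contractile mesenchyme, was as low as in the Dlk1- Sca1+ cells. It was at 5.48, 5.22 and 5.56 in Dlk1+ Sca1+ cells, at 8.28, 7.76 and 8.58 in reticular and at 5.26, 5.26 and 5.29 in Dlk1- Sca1+ cells. Mgp, an inhibitor of mineral deposition, was at 7.62, 7.17 and 7.10, against 9.68, 9.83 and 9.36 and 6.58, 6.51 and 6.64. Itga8 overlapped the Dlk1- Sca1+ cells and Mgp did not, and without animal 2 the midpoint call of Mgp was lost (adjusted p = 0.07698 by limma). Of all genes, 3104 (18.2%) were called between the neighbours themselves. Over the 465 of these that differed by at least 1 log2 unit, the double-positive mean was between them in 386, 183 nearer reticular and 203 nearer Dlk1- Sca1+ cells, with a median position of 0.54 of the way from reticular.

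**Figure D4:**
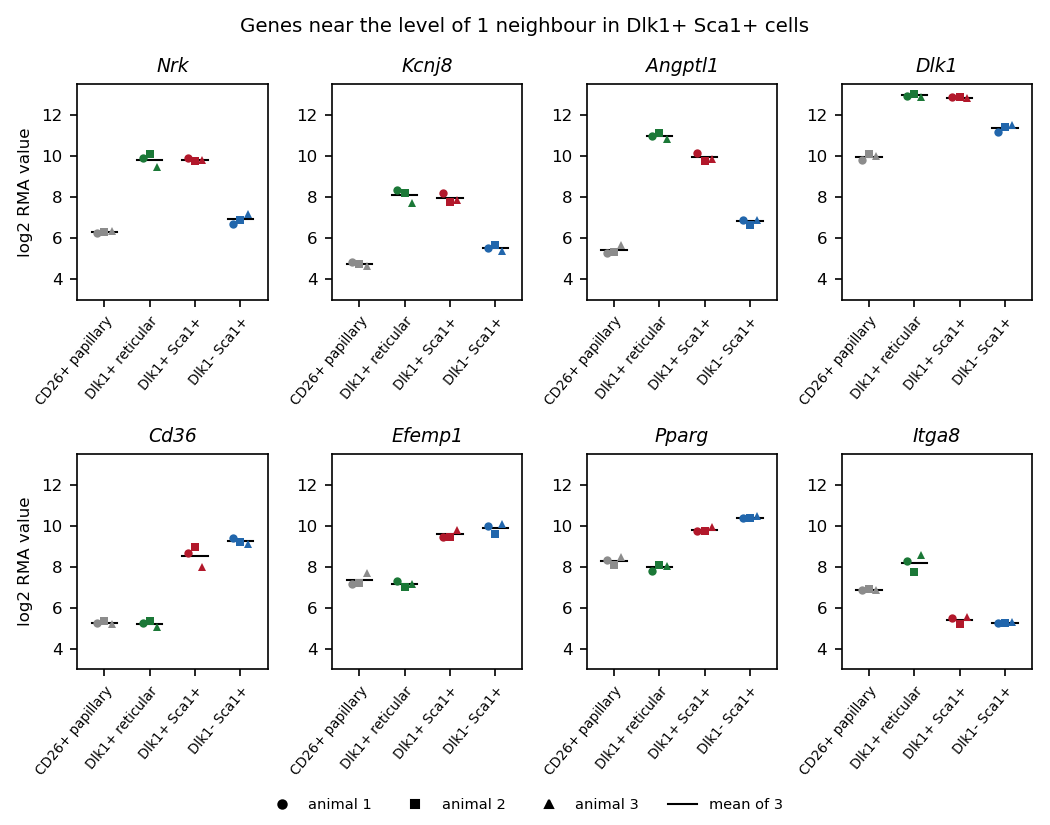
Log2 RMA values of 8 genes on all 12 arrays, by population (horizontal) and animal (symbols), with the mean of 3 animals as a bar. Nrk, Kcnj8, Angptl1 and Dlk1 are nearer the reticular level in Dlk1+ Sca1+ cells, and Cd36, Efemp1, Pparg and Itga8 nearer the Dlk1- Sca1+ level.

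Dividing cells and other cell types were read from lists of their own. Of 33 cell cycle genes, 4 fell (median -0.25), namely Ccnd1, Cenpf, Nusap1 and Top2a. At an unadjusted p under 0.05 by limma, 16 of the 33 were lower and 0 higher. The share of all genes at that threshold is not given here, so this count is no measure of an excess. The block on the animal gave 7 that fell, whereas with the 3 differences per animal as the only data the calls of Nusap1 and Top2a were lost (adjusted p = 0.05335 and 0.06667 by limma). Without animal 1, 2 or 3 there were 1, 2 and 0, and without the Dlk1+ Sca1+ array of animal 1 or 2 there were 1 and 2. Of the immune, keratinocyte, melanocyte and Schwann, and skeletal muscle lists, limma called 0 members, with 1, 0, 1 and 0 at an unadjusted p under 0.05 in that order. Bpgm of the 5 erythroid genes fell, and without animal 3 its adjusted p was 0.06704 by limma.

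Summed levels of some of those lists stood out on single arrays. The 14 keratinocyte genes summed to 14790 on the Dlk1- Sca1+ array of animal 1, against 2568 and 2779 on those of animals 2 and 3 and 2145 to 5675 in Dlk1+ Sca1+ cells. On the same 3 Dlk1- Sca1+ arrays the 10 melanocyte and Schwann genes summed to 2310, 986 and 819. The 5 erythroid genes summed to 2096, 608 and 1783 in Dlk1+ Sca1+ cells of animals 1 to 3. Their sums were 823, 1540 and 766 in reticular and 586, 1421 and 1363 in Dlk1- Sca1+ cells. The endothelial sum was highest among double-positive arrays in animal 2, at 2150, where Pecam1, the gene of CD31, was at 8.74 beside 7.78 and 7.94. An alternative chosen after seeing the data left out the Dlk1- Sca1+ array of animal 1 and the Dlk1+ Sca1+ array of animal 2. In it, 290 genes were higher and 240 lower than the midpoint, 96 were above and 80 below both neighbours, and the counts nearer 1 neighbour fell to 37 and 35. The part of the transcripts of other cell types in single results was not tested.

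**Figure D5:**
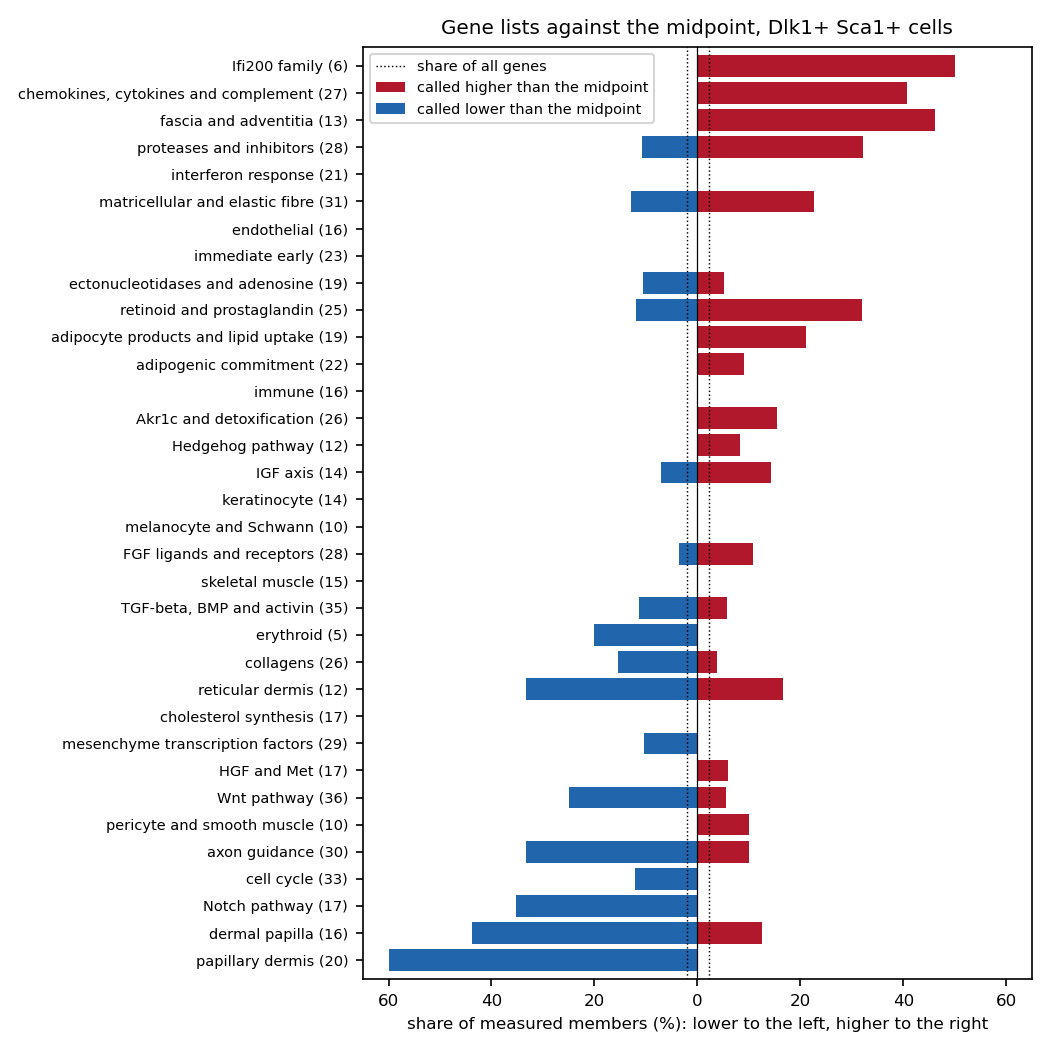
Share of the measured members (%, number in brackets) of each of 34 gene lists called higher (right) or lower (left) in Dlk1+ Sca1+ cells than the midpoint, ordered by the median difference. The dotted lines mark the shares of all genes, 2.32% higher and 1.94% lower. The lists furthest from them are papillary dermis with 12 of 20 lower and the Ifi200 family with 3 of 6 higher. The papillary dermis list holds the markers Trps1 and Entpd1, which were picked with results of these data known.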

How the data were processed

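Fibroblast populations were sorted from 3 littermates, and 8 µg of cDNA per sample was labelled for the array, per the labels' protocols. The authors deposited log2 values made by RMA with affy, per the submitters' processing notes. RMA corrects background, normalizes by quantiles and summarizes probes, and it understates fold differences of dim genes. No genome build was given in the sources used here. The table had 0 columns of no sample.

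Of 45141 probe sets, 104 controls were left out. Of the rest, 28898 had 1 gene symbol, 551 had several, and 15588 (34.61%) are unnamed here. The probe set with the highest mean was kept per gene (17097 genes, no filter on dim genes).

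A model with a coefficient per population (12 arrays, limma 3.58.1, R 4.3.3) gave 8 residual degrees of freedom, and its scripts were tested on simulated data. Numbers pair the samples, since arrays with the same number come from the same littermate. Deviations of such arrays correlated across genes with a mean r of 0.266 (0.086 to 0.432, 17 of 18 pairs above 0.1). The "larger adjusted p" is the higher of both limma contrasts against the neighbours. Lists are described by counts and medians.

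Members, lists and motifs were chosen with earlier results of these data known. Named genes are the sorting and marker genes, per direction the 12 without overlap that had the largest smallest difference from both neighbours, the 5 largest per group between the neighbours, up to 4 called genes per list, every measured gene of the 5 lists that hold a marker, and the 5 most like Akr1c14 and Trps1. Clone names were left out. Genes outside this rule, such as Alx4, C1s1, Lgr5, Fzd4, Lef1, Rspo3, Lfng and Hes1, were picked after their values were seen.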

Additional observations from a re-analysis of the deposited data

How the results depend on the processing

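Of 211 named differences from the midpoint, 4331 values under 22 alternative fits kept their side of the threshold and, where called, their direction. Another 228 were weaker, 25 stronger and 2 reversed, the last with a call in at least 1 of the 2 fits compared. Uncalled values that changed direction count among the 4331, as for Epcam, which ranged from -0.577 to 0.443. Both reversals came with the midpoint on the linear scale, where Angptl1 was at -0.129 and Cyp1b1 at -0.471. With that midpoint 504 genes were lower and 97 lay nearer Dlk1- Sca1+ cells. Of the named genes called against both neighbours, 8 of 33 above and 14 of 32 below were called in every alternative run that held them. The linear midpoint was not among these runs. The run without dim genes, cut at a mean of 6.195, did not hold Akr1c14, Fgf23, Acaa1b and Ifi205, which are among those above.

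The animal as a replicate block gave 513 genes lower than the midpoint, 185 above and 159 below both neighbours and 90 nearer reticular cells, and it ended the midpoint call of Fabp4 among the named genes. The paired fit on the 3 differences per animal ended the midpoint calls of Mmp3, Nusap1, P2ry1 and Top2a and the calls against both neighbours of Fgfr4, Id1, Ccnd1, Nusap1, C1qtnf1 and Lfng among the named genes. Fitting only the 9 arrays of the 3 populations ended the calls against both neighbours of Aplp1, Ccnd1, Cd200, Cenpf and Lfng among the named genes. The midpoint calls of Cd24a, Cd34, Nr2f1, P2ry1 and Top2a also ended in that fit. Adjusting the larger of both p-values over all genes left 38 genes above and 43 below both neighbours. A minimum difference of 0.5 left 212 higher, 177 lower, 70 above both, 62 below both, 31 nearer reticular and 29 nearer Dlk1- Sca1+ cells. Without the 2 arrays with raised keratinocyte or endothelial transcripts (chosen after seeing the data), 37 lay nearer reticular and 35 nearer Dlk1- Sca1+ cells.

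Leaving out 1 animal or 1 array gave 123 to 412 genes higher and 86 to 350 lower than the midpoint, 29 to 108 above and 37 to 107 below both neighbours, 12 to 60 nearer reticular and 15 to 59 nearer Dlk1- Sca1+ cells. The lowest counts were all without animal 3. Leaving out an animal or array takes samples from the fit. Dim genes, such as Fgf23 and Hey2 in the neighbours, limit the folds that can be read.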
